A study of Komagataella pastoris with 4 samples.

Results

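The genes described here encode proteins of the mitochondrial ribosome in the methylotrophic yeast Pichia pastoris. They were taken from the deposited count table by the description of the protein: rows that name a mitochondrial ribosomal protein, carry an MRP-type name (MRP stands for mitochondrial ribosomal protein) or mention mitochondrial translation, with tRNA synthetases left out. This gave 17 of 5427 rows. All 17 were described as ribosomal proteins, 6 of the large and 11 of the small subunit, and none as a translation factor or an activator, so the values below concern the ribosome itself. The names MRP2 (gene422) and MRP51 (gene3490) stand in descriptions that say 40S, the small subunit of the cytosolic ribosome, although proteins of these names belong to the mitochondrial small subunit in Saccharomyces cerevisiae. Genes are cited by description and by the table's own row identifier, because the table held no coordinates and no gene lengths.

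RNA was sequenced from a strain labelled as a deletion of Mxr1, a strain lacking Gal83, a strain lacking Gcn5, and the wild type GS115. The cultures had spent 14 h on methanol as their carbon source in a minimal medium, and each strain was represented by 1 library. All 4 strains are histidine auxotrophs, and the 3 deletion strains carry Zeocin resistance, which GS115 lacks. Mxr1 is a zinc-finger activator of methanol genes, Gal83 belongs to the Snf1 kinase, of which it is a beta-subunit, and Gcn5 is the histone acetyltransferase of the SAGA complex. The series was set up to find genes that depend on Gcn5.

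Mitochondria make a handful of their proteins themselves, nearly all of them membrane subunits of the respiratory chain and the ATP synthase, on a ribosome that descends from the bacterial one. In yeast almost all proteins of this ribosome are encoded in the nucleus, made in the cytosol and imported. Its large subunit, called 54S, joins amino acids into protein, and its small subunit, called 37S, reads the mRNA. Growth on methanol needs peroxisomes to oxidise the alcohol and mitochondria to burn the NADH made from formaldehyde.

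Total counts were 34646983 in the Mxr1-labelled, 30582006 in the Gal83-deleted, 30741258 in the Gcn5-deleted and 48539082 in the wild-type library. The counts were brought to 1 scale with TMM factors (trimmed mean of M-values), and levels are given as CPM, the count of a row relative to the scaled total of its library. Since levels were not divided by gene length, they are compared between libraries and not between genes. They are relative to each library, so they tell neither the number of cells nor the amount of RNA per cell. Differences are log2 ratios to the wild type, with an exact 95% counting interval in brackets that covers counting error only. With 1 library per strain there is no replicate check and no test: a call of higher or lower means a ratio of 2-fold or more whose interval leaves out equality, which describes the libraries and not the strains. The row for the Gcn5 acetyltransferase (gene3103) had 3 counts in the Gcn5-deleted library, against 2570 in the wild type, and a row for a Snf1 beta-subunit (gene1360) had 8 counts in the Gal83-deleted library, against 5215 in the wild type. No row was described as Mxr1, so that label was not checked and every direction from that library rests on it.

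Of the 17 genes of the mitochondrial ribosome, 14 were called in none of the 3 comparisons, and 63.7% of all 5420 rows compared were called in none either. In the Mxr1-labelled library 1 gene was called higher and 0 lower, where 7.97% and 10.3% of all rows were called higher and lower. In the Gal83-deleted library 2 genes were called higher and 0 lower, beside 11.0% and 10.7% of all rows. In the Gcn5-deleted library 0 genes were called in either direction, beside 4.06% and 5.04% of all rows. These counts lie near the shares over the whole table, so they set the ribosome genes apart in no comparison. The median log2 ratio of the 17 genes was -0.16 in the Mxr1-labelled, 0.14 in the Gal83-deleted and -0.05 in the Gcn5-deleted library, where the medians of all rows were -0.01, 0.01 and -0.01. Scaling by total counts gave -0.52, 0.27 and -0.39 for the ribosome genes. It moved the medians of all rows by -0.35, 0.13 and -0.33, and so left the distance between the list and the table as it was. The signs of small ratios turned with it: for the Mxr1-labelled library 4 genes lay above the wild type in place of 7, and for the Gcn5-deleted library 3 in place of 7. With total counts 2 genes were called lower in the Mxr1-labelled library, gene3294 and gene3831, beside 18.9% of all rows, and 1 in the Gcn5-deleted library, gene1971, beside 10.8%.

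Counting error was small beside a 2-fold change for these genes, but differences between cultures were not measured. The lowest count of a ribosome gene in any library was 314 and the highest 9318, and the median width of the interval was 0.25, 0.22 and 0.24 log2 units in the Mxr1-labelled, Gal83-deleted and Gcn5-deleted comparisons. At a smaller size of 1.5-fold, 2 genes were higher and 3 lower in the Mxr1-labelled library, beside 19.4% and 21.2% of all rows. In the Gal83-deleted library 4 were higher and 2 lower at that size, beside 23.0% and 21.4%. In the Gcn5-deleted library 0 were higher and 2 lower, beside 12.7% and 13.5%.

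**Figure D1:**
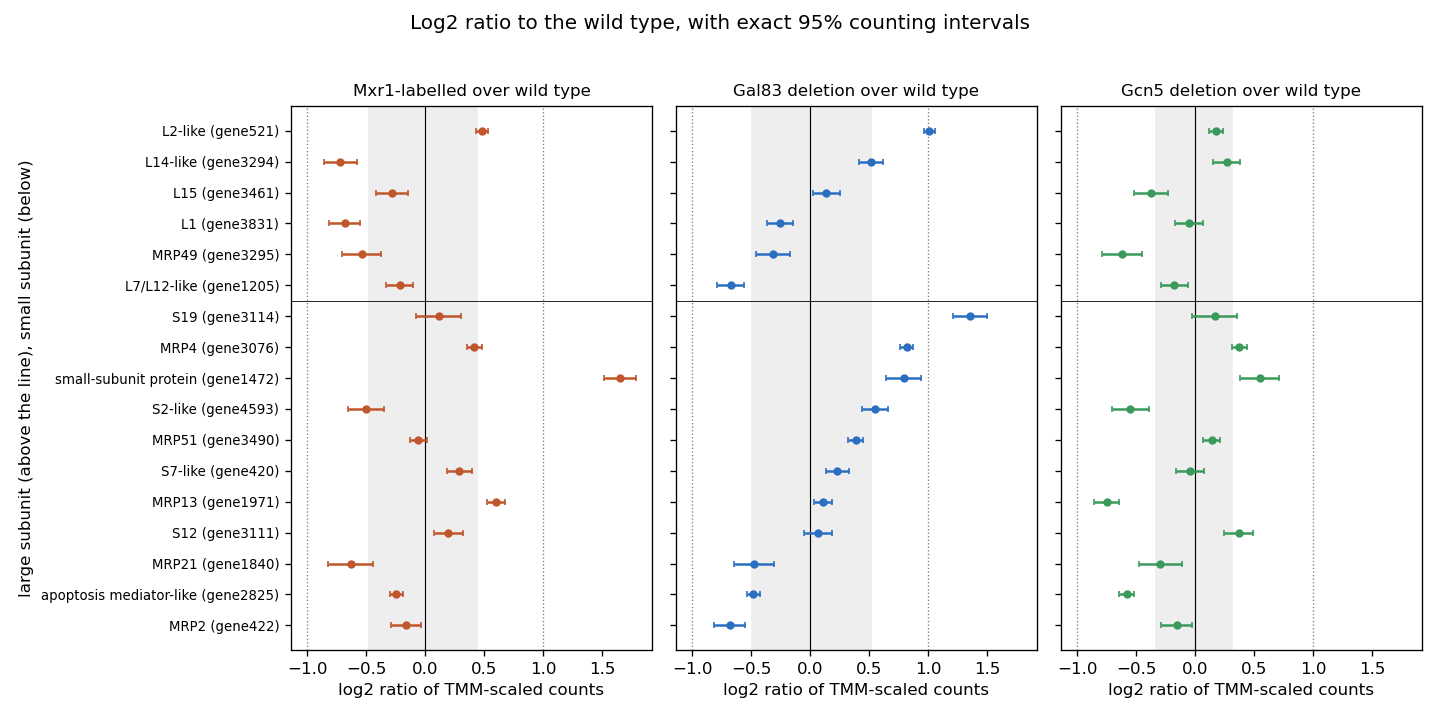
Log2 ratio of scaled counts to the wild type for each of the 17 mitochondrial ribosomal protein genes (horizontal axis, 1 panel per deletion library). Points are single libraries, bars are exact 95% counting intervals, dotted lines mark 2-fold, and the grey band spans the interquartile range of all rows compared. Gene1472 lies past 2-fold in the Mxr1-labelled panel, gene521 and gene3114 do in the Gal83-deleted panel, and no gene does in the Gcn5-deleted panel.

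The L2-like protein (gene521) was the large-subunit gene called in a comparison. In bacteria L2 lies close to the peptidyl transferase centre, where the peptide bond is made. Its level was 175 CPM in the Mxr1-labelled, 253 in the Gal83-deleted, 142 in the Gcn5-deleted and 125 in the wild-type library. All 3 deletion libraries were thus above the wild type, and the Gal83-deleted library was 2.01-fold above it (log2 1.01 [0.96 to 1.06]). This gene sits on the edge of the size rule: with DESeq2 size factors its ratio was 0.99 and with upper-quartile factors 0.94, and it was then not called. In the Gcn5-deleted library its ratio was 0.18, and -0.15 with total counts. It also carried the most counts of the 17 genes in the 3 deletion libraries, 9318 of 37251 in the Gal83-deleted library.

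The L14-like protein (gene3294) went in opposite directions. L14 sits at the face of the large subunit that meets the small one. Its level was 18.5 CPM in the Mxr1-labelled, 43.7 in the Gal83-deleted, 36.7 in the Gcn5-deleted and 30.6 in the wild-type library. It was the lowest of the 17 in the Mxr1-labelled library at log2 -0.72 [-0.86 to -0.58], yet was at 0.51 [0.41 to 0.61] in the Gal83-deleted library. The next row of the table is MRP49 (gene3295), a large-subunit protein with no bacterial counterpart. Its level was 14.4, 16.7 and 13.6 CPM in the Mxr1-labelled, Gal83-deleted and Gcn5-deleted libraries, against 20.9 in the wild type. The wild type was therefore the highest library for MRP49, at log2 -0.54, -0.32 and -0.62 for the deletion libraries, while its neighbour stood above the wild type in the Gal83-deleted and Gcn5-deleted libraries. In the Gcn5-deleted library that contrast rests on the scaling, since the L14-like gene was at -0.07 with total counts. In the gene table of another Komagataella pastoris strain, genes named MRP49 and MRPL38, the yeast L14 protein, also lie side by side with 0 rows between them.

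The L1 protein (gene3831) forms the mobile stalk by which used tRNA leaves the bacterial ribosome. Its level was 20.5 CPM in the Mxr1-labelled, 27.6 in the Gal83-deleted, 31.7 in the Gcn5-deleted and 32.9 in the wild-type library, so it stood lowest in the Mxr1-labelled library at log2 -0.68 [-0.82 to -0.55]. The opposite stalk of the bacterial large subunit, which draws in the elongation factors, is built of L7/L12. The L7/L12-like protein (gene1205) had 32.2 CPM in the Mxr1-labelled, 23.5 in the Gal83-deleted, 33.1 in the Gcn5-deleted and 37.5 in the wild-type library. Both stalk genes were thus below the wild type in all 3 deletion libraries, L1 most so in the Mxr1-labelled and L7/L12 most so in the Gal83-deleted library (log2 -0.67 [-0.79 to -0.56]). For L1 in the Gcn5-deleted library the interval included equality (-0.05 [-0.17 to 0.06]). The L15 protein (gene3461), an RNA-binding protein of the core of the large subunit, had 21.8, 29.1 and 20.4 CPM in the Mxr1-labelled, Gal83-deleted and Gcn5-deleted libraries, against 26.4 in the wild type.

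Of the 11 small-subunit genes, 1 was called in the Mxr1-labelled library. It is described only as a mitochondrial ribosomal protein of the small subunit (gene1472). Its level was 41.4 CPM in the Mxr1-labelled, 22.9 in the Gal83-deleted, 19.3 in the Gcn5-deleted and 13.2 in the wild-type library. The Mxr1-labelled library was thus 3.14-fold above the wild type (log2 1.65 [1.51 to 1.78]), with the other deletion libraries between, at log2 0.79 [0.65 to 0.94] for Gal83 and 0.55 [0.38 to 0.72] for Gcn5. It had the widest span over the 4 libraries of all 17 genes. The row before it, described as an essential nuclear envelope membrane protein (gene1471), was at log2 1.02 in the Mxr1-labelled library with 732 counts, against 645 in the wild type. The row after it, a plasma membrane arginine permease (gene1473), was at 0.14.

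The other small-subunit gene past 2-fold was S19 (gene3114), a protein of the head of the small subunit, and it stood out in a single library. Its level was 29.8 CPM in the Gal83-deleted library, while it was 12.6 in the Mxr1-labelled, 13.1 in the Gcn5-deleted and 11.7 in the wild-type library. It was 2.56-fold above the wild type in the Gal83-deleted library (log2 1.35 [1.21 to 1.499]). The intervals of the other comparisons included equality, at 0.11 [-0.07 to 0.30] in the Mxr1-labelled and 0.17 [-0.02 to 0.36] in the Gcn5-deleted library. The rows on either side, gene3113 and gene3115, were at log2 0.22 and 0.16 in the Gal83-deleted library. The rows beside gene521, an ATP synthase stalk subunit (gene520) and a telomere replication protein (gene522), were at -0.53 and 0.21 there.

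**Figure D2:**
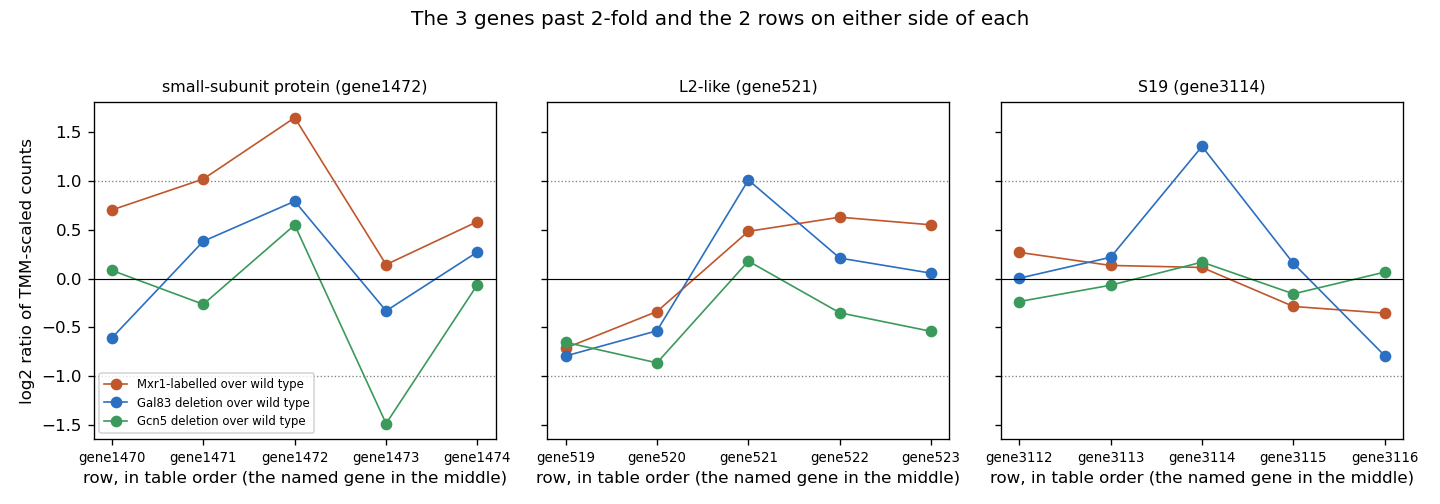
Log2 ratio of scaled counts to the wild type (vertical axis) for the 3 genes past 2-fold and the 2 rows before and after each in the table's order (horizontal axis), 1 line per deletion library. Gene521 and gene3114 stand above their neighbours in the Gal83-deleted library, whereas gene1471 next to gene1472 is also high in the Mxr1-labelled library, at 1.02.

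A pair of rows bore names of the same small-subunit protein, since MRP4 of Saccharomyces cerevisiae is the counterpart of bacterial S2. MRP4 (gene3076) had 117, 155 and 114 CPM in the Mxr1-labelled, Gal83-deleted and Gcn5-deleted libraries, against 87.6 in the wild type. The S2-like row (gene4593) had 17.1, 35.5 and 16.6 CPM in the same libraries, against 24.2 in the wild type. MRP4 was above the wild type in all 3 deletion libraries, at log2 0.42, 0.82 and 0.37, whereas the S2-like row was below it in the Mxr1-labelled and Gcn5-deleted libraries (log2 -0.50 and -0.55) and above it in the Gal83-deleted library (0.55). Both were highest in the Gal83-deleted library.

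MRP13 (gene1971), a small-subunit protein of yeast mitochondria, had the largest contrast between the Mxr1-labelled and the Gcn5-deleted library. Its level was 90.6 CPM in the Mxr1-labelled, 64.3 in the Gal83-deleted, 35.5 in the Gcn5-deleted and 59.7 in the wild-type library. At log2 -0.75 [-0.85 to -0.64] it was the lowest of the 17 genes in the Gcn5-deleted library, and at 0.60 [0.53 to 0.68] the next highest after gene1472 in the Mxr1-labelled library. With total counts it passed 2-fold in the Gcn5-deleted library and was called lower there. The row similar to a mammalian apoptosis mediator (gene2825) had 125, 106 and 99.1 CPM in the Mxr1-labelled, Gal83-deleted and Gcn5-deleted libraries, against 148 in the wild type. All 3 deletion libraries were below the wild type for that gene, at log2 -0.24, -0.48 and -0.58.

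MRP2 (gene422), the yeast counterpart of bacterial S14, was the lowest of the 17 genes in the Gal83-deleted library at log2 -0.68 [-0.82 to -0.55]. It had 25.3, 17.7 and 25.4 CPM in the Mxr1-labelled, Gal83-deleted and Gcn5-deleted libraries, against 28.4 in the wild type. MRP21 (gene1840), the counterpart of bacterial S21, had 10.5, 11.7 and 13.3 CPM in the same libraries, against 16.3 in the wild type, and was thus below it throughout. The S7-like protein (gene420), which in bacteria starts the assembly of the head of the small subunit, spanned the narrowest range of the 17 genes over the 4 libraries. It had 41.4, 39.8 and 32.9 CPM in the Mxr1-labelled, Gal83-deleted and Gcn5-deleted libraries, against 33.9 in the wild type. S7 and MRP2 lie 1 row apart, with a core subunit of the ubiquinol-cytochrome c reductase (gene421) between them, and genes named RSM7, the yeast S7 protein, and MRP2 lie 1 row apart in the other strain's gene table as well.

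S12 (gene3111), which in bacteria monitors the match of codon and anticodon in the decoding centre, had 30.5, 27.8 and 34.3 CPM in the Mxr1-labelled, Gal83-deleted and Gcn5-deleted libraries, against 26.6 in the wild type. MRP51 (gene3490), which in Saccharomyces cerevisiae is tied genetically to the translation of mitochondrial COX2 and COX3 mRNAs, had 78.1, 106 and 89.7 CPM in the same libraries, against 81.4 in the wild type. S12 was the single gene that was highest in the Gcn5-deleted library, but with total counts it was highest in the Gal83-deleted library (log2 0.20, against 0.04 for Gcn5). MRP51 was highest in the Gal83-deleted library, at log2 0.39.

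**Figure D3:**
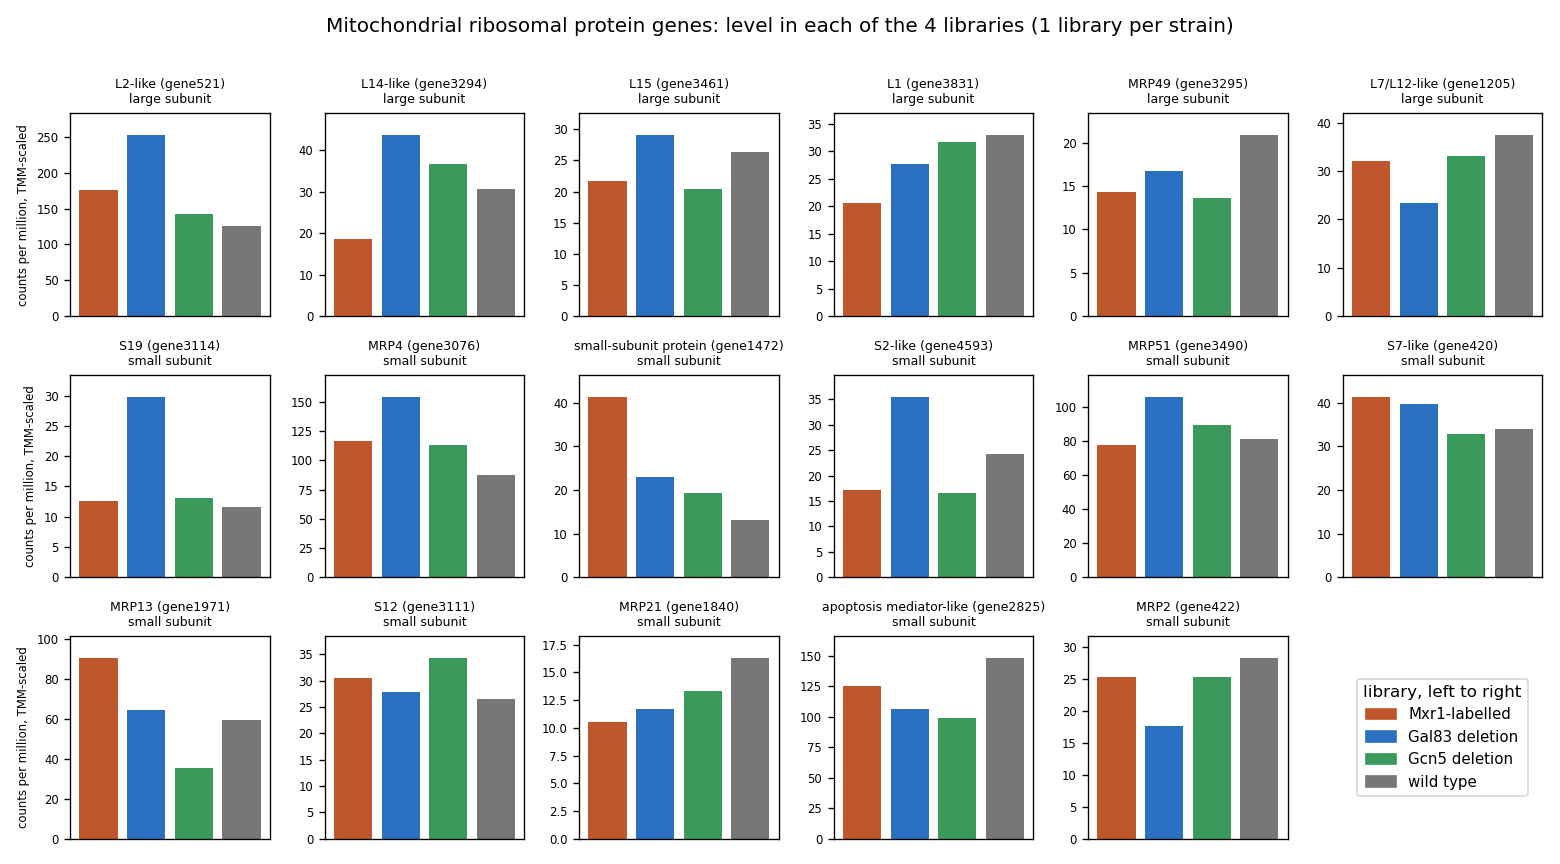
Scaled CPM (vertical axis, from 0, own scale in each panel) of the 17 genes in the 4 libraries, 1 bar per library, in the order Mxr1-labelled, Gal83 deletion, Gcn5 deletion, wild type. The tallest bar belongs to the Gal83-deleted library in 7 genes and to the wild type in 6.

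The 17 genes did not move as 1 block. Between the highest and the lowest library the median gene spanned 1.61-fold, from 1.26-fold for the S7-like gene to 3.14-fold for gene1472, while the median over all rows compared was 1.98-fold. The 4 libraries lay within 2-fold of one another for 11 of the 17 genes, and for 50.9% of all rows. The standard deviation of the log2 ratios among the 17 genes was 0.60, 0.61 and 0.39 in the Mxr1-labelled, Gal83-deleted and Gcn5-deleted comparisons, and 0.93, 0.89 and 0.64 among all rows. The Mxr1-labelled library was the highest for 3 genes, the Gal83-deleted library for 7, the Gcn5-deleted library for 1 and the wild type for 6. Over all rows these shares were 26.7%, 31.2%, 21.3% and 20.8%. With total counts the numbers of genes were 2, 9, 0 and 6, beside 13.4%, 47.5%, 9.89% and 29.2% of all rows. The 3 comparisons share the wild-type library, so a gene that lies on the same side of it in all 3 is not 3 separate observations.

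The 6 large-subunit genes and the 11 small-subunit genes were then set side by side. The large subunit had median log2 ratios of -0.41, -0.06 and -0.12 in the Mxr1-labelled, Gal83-deleted and Gcn5-deleted libraries, and the small subunit 0.11, 0.23 and -0.04. In the Mxr1-labelled library 5 of 6 large-subunit genes were below the wild type, gene521 being the exception, while 6 of 11 small-subunit genes were above it. With total counts the small-subunit median in that library was -0.24 and with upper-quartile factors it was -0.0012, and the large-subunit median in the Gal83-deleted library was 0.08 with total counts. These signs depend on scaling, while the gap between the subunits does not. The summed level of the large-subunit genes was 283, 393 and 277 CPM in the Mxr1-labelled, Gal83-deleted and Gcn5-deleted libraries, against 274 in the wild type, and gene521 made up 253 of the 393. The summed level of all 17 genes was 872, 1010 and 770 CPM, against 805 in the wild type. As unscaled CPM, relative to each library's total count, the 17 genes summed to 752, 1218 and 673, against 885 in the wild type, and the large-subunit genes to 244, 474 and 242, against 301. The Mxr1-labelled and Gcn5-deleted sums of the large subunit and the Mxr1-labelled sum of all 17 genes thus changed side of the wild type with the scaling.

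Another 36 rows have names of mitochondrial ribosomal proteins, 37S, 54S or 39S, without the wording that defined the 17. They were picked by name after the descriptions had been read. Of these 36, 0 were called higher and 2 lower in the Mxr1-labelled library, beside 7.97% and 10.3% of all rows. In the Gal83-deleted library 2 were higher and 0 lower, beside 11.0% and 10.7%. In the Gcn5-deleted library 0 were called either way, beside 4.06% and 5.04%. The median log2 ratios of the 36 rows were -0.06, 0.10 and 0.13. With total counts 5 were lower in the Mxr1-labelled library, beside 18.9% of all rows, and the Gcn5-deleted median was -0.20. The called genes were 54S proteins L28 (gene1543, log2 -1.30) and L3 (gene3349, -1.10) in the Mxr1-labelled library, and 54S protein L36 (gene3073, 1.82) and 37S protein S22 (gene5352, 1.04) in the Gal83-deleted library. Gene3073 had 20.6, 84.7 and 30.6 CPM in the Mxr1-labelled, Gal83-deleted and Gcn5-deleted libraries, against 24.0 in the wild type. Like S19 it was called in the Gal83-deleted library alone. Among these rows the 26 of the large subunit had medians of -0.15, 0.14 and 0.10 in the Mxr1-labelled, Gal83-deleted and Gcn5-deleted libraries. The 10 of the small subunit had medians of 0.12, 0.02 and 0.17. In the Gal83-deleted library their order was thus the reverse of that among the 17 genes (large -0.06, small 0.23). With all 53 rows together, 1 was called higher and 2 lower in the Mxr1-labelled library, again beside 7.97% and 10.3% of all rows. In the Gal83-deleted library 4 were higher and 0 lower, beside 11.0% and 10.7%. In the Gcn5-deleted library 0 were called, beside 4.06% and 5.04%.

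The cytosolic ribosome behaved otherwise in the Gal83-deleted library. Of 79 rows described as 40S or 60S ribosomal proteins, 72 were called lower and 0 higher there, with a median log2 ratio of -1.80, beside 10.7% and 11.0% of all rows. In the same library the mitochondrial ribosome genes lay between -0.68 and 1.35, all 17 above the median of the cytosolic rows. Of the 79 cytosolic rows, 5 reached above the lowest mitochondrial one. Over all rows the median was 0.01 and the lower quartile -0.50, so most rows of the table lay above the cytosolic median too. Relative to the median of all rows, the cytosolic median lay at -1.81 and that of the 17 genes at 0.13. The medians of the lists were 1.94 log2 units apart in the Gal83-deleted library, 0.41 in the Mxr1-labelled and 0.16 in the Gcn5-deleted library. The scaling cannot change these distances. In the Mxr1-labelled library 9 of the 79 cytosolic rows were called lower and 1 higher (median -0.58), beside 10.3% and 7.97% of all rows. In the Gcn5-deleted library 1 was called lower and 0 higher (median -0.21), beside 5.04% and 4.06%. In the Mxr1-labelled library 30 cytosolic rows were lower under total counts, beside 18.9% of all rows, and 15 under upper-quartile factors, beside 12.6%. The summed level of the cytosolic rows was 22660, 10884 and 28552 CPM in the Mxr1-labelled, Gal83-deleted and Gcn5-deleted libraries, against 32759 in the wild type.

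Nuclear genes for the respiratory chain and the ATP synthase, whose complexes also take up the proteins that the mitochondrial ribosome makes, lay between both ribosomes in the Gal83-deleted library. Of 55 such rows 14 were called lower and 0 higher there (median -0.56), beside 10.7% and 11.0% of all rows. The lowest of the 55 was subunit g of the ATP synthase (gene3459), at log2 -2.34. In the Mxr1-labelled library 1 was lower and 0 higher (median 0.02, and -0.33 with total counts), beside 10.3% and 7.97% of all rows. In the Gcn5-deleted library 1 was lower and 0 higher (median -0.29), beside 5.04% and 4.06%. With total counts 5 were lower there, beside 10.8%. The mitochondrial ribosome genes were 0.70 log2 units above these subunits by median in the Gal83-deleted library, 0.24 above in the Gcn5-deleted library and 0.18 below in the Mxr1-labelled library. No test of these distances was possible with 1 library per strain.

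**Figure D4:**
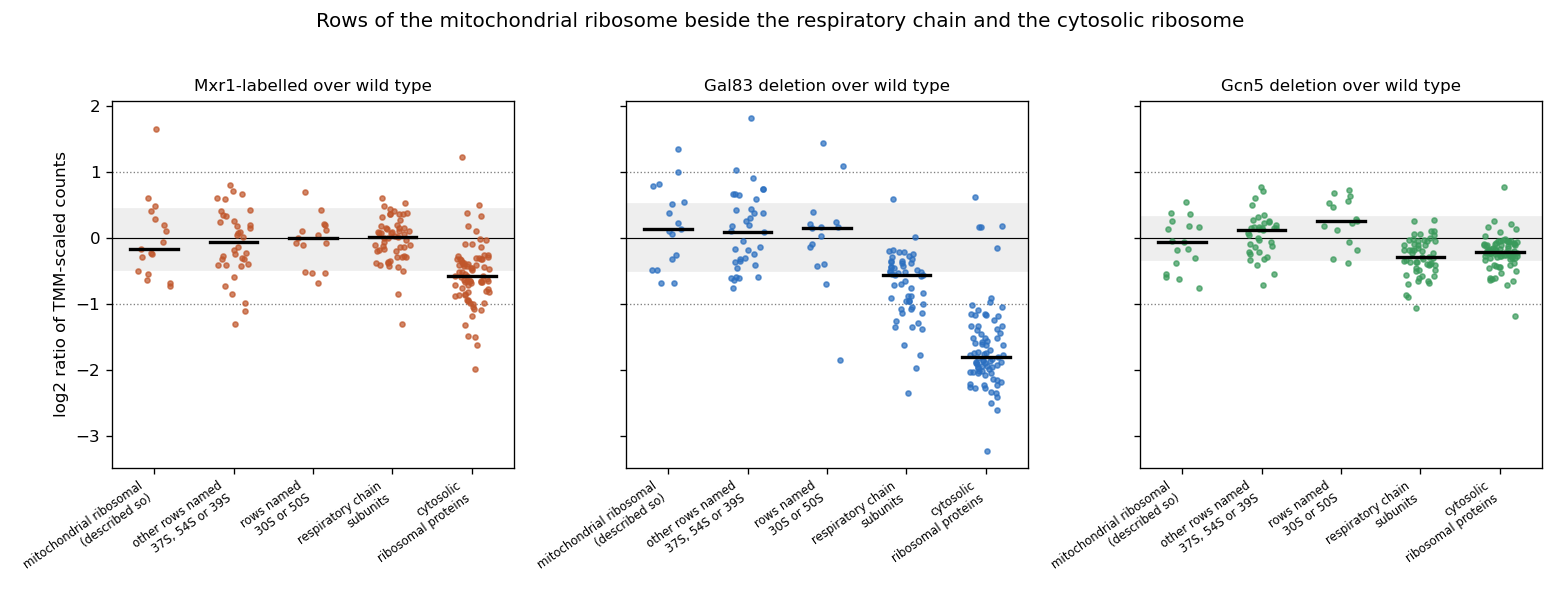
Log2 ratio of scaled counts to the wild type (vertical axis) for the 17 mitochondrial ribosomal protein genes, 36 other rows named 37S, 54S or 39S, 15 rows named 30S or 50S, 55 respiratory chain and ATP synthase subunits and 79 cytosolic ribosomal proteins, 1 panel per deletion library. Each point is a row, black bars are medians, dotted lines mark 2-fold and the grey band spans the interquartile range of all rows. In the Gal83-deleted panel the cytosolic median is -1.80 and the mitochondrial one 0.14.

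Other steps of mitochondrial translation were covered by few rows. Of 3 mitochondrial tRNA synthetases, which charge tRNAs with amino acids, the phenylalanyl enzyme (gene1422) was called lower in the Mxr1-labelled and Gal83-deleted libraries, at log2 -1.11 and -1.08. It had 14.9, 15.1 and 21.7 CPM in the Mxr1-labelled, Gal83-deleted and Gcn5-deleted libraries, against 32.0 in the wild type. Of 5 rows for activators of single mitochondrial mRNAs, 0 were called in any comparison, where 63.7% of all rows were called in none. Among them a protein needed for translation of COX1 mRNA (gene1913) was at 0.77 in the Gal83-deleted library, and a regulator of Atp6 and Atp8 expression (gene4853) at 0.74 in the Gcn5-deleted library. Of 6 rows for modification of mitochondrial rRNA and tRNA, 1 was lower in the Mxr1-labelled library, beside 10.3% of all rows. It is a tRNA methyltransferase shared with the nucleus (gene2968, -1.15), and 0 of the 6 were called elsewhere.

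Of 7 rows for mitochondrial transcription, DNA and RNA processing, a DNA-binding protein of mitochondrial DNA repair (gene2077) was called lower in all 3 comparisons. Its log2 ratios were -1.69, -1.31 and -1.14 in the Mxr1-labelled, Gal83-deleted and Gcn5-deleted libraries. In the same libraries 10.3%, 10.7% and 5.04% of all rows were called lower. The intron splicing factor CCM1 (gene3443) was lower in the Gal83-deleted library (-1.08) and at 0.84 in the Mxr1-labelled library. The specificity factor of the mitochondrial RNA polymerase (gene4422), which lets the enzyme find its promoters, was at 0.59, -0.05 and 0.41. The remaining 4 rows of this list were called in no comparison. Among them a row for end processing of mitochondrial RNAs (gene178) was at 0.99 in the Gal83-deleted library, just short of 2-fold. The lowest ratio among these 4 rows was -0.95, in the Mxr1-labelled library. No row was described as a mitochondrial initiation, elongation, release or recycling factor.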

How the data were processed

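The authors deposited raw counts, 1 whole number for each row and library and not normalized, in 4 columns whose names match the strains. Tools listed in the submitters' processing notes, with no roles, are featureCounts 1.6.4, Bowtie2, fastp 0.19.6, DESeq2 and bcl2fastq 2.19.0.316. Per the labels' protocols, ribosomal RNA was removed with a kit for bacteria. Strandedness, genome build and annotation are not given in the sources used here, so reads from overlapping genes on opposite strands cannot be told apart.

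A mean of 20 counts over the libraries was the minimum (5420 of 5427 rows passed, all 17 genes among them). TMM factors came from edgeR 4.0.16 in R 4.3.3. Log2 ratios were taken after adding 0.5 to each count. Intervals are exact Clopper-Pearson intervals of the deletion library's share of the pair's counts. They cover counting error only, and the labels mention no molecular identifiers that would separate duplicate reads. The calculation was run on simulated counts that held counting error only, drawn with the same scaled totals. That run could not test differences between cultures or the choice of scaling. The other tools were scipy 1.17.1, pandas 2.3.3, numpy 2.4.6 and matplotlib 3.10.9 in Python 3.11.15.

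The genes and lists were chosen with earlier results of these data known. The lists of 37S, 54S, 39S, 30S and 50S rows and of bacterial-type factors were added after the descriptions had been read. From the respiratory list, assembly factors and vacuolar subunits were left out. A row for biogenesis of the 60S subunit was left out of the cytosolic ribosomal proteins. Subunits were assigned from the descriptions, by bacterial protein name where no subunit is stated. Every one of the 17 genes is named with its values. Of other lists at most 4 rows with large ratios or a call are named. Names in the reference gene table, of another Komagataella pastoris strain, were used for gene order only: 0 locus tags and 0 protein accessions matched, while 6 of 6 MRP names were found. The alternatives tried were other scalings, filters, added counts, a smaller fold, and other choices of member rows.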

Additional observations from a re-analysis of the deposited data

How the results depend on the processing

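No paired analysis was possible because each strain had 1 library, and for the same reason no library could be left out of a comparison. Without a filter, with a filter at a mean of 100 counts, with 5 added to each count, with the 20 highest rows left out before scaling, and without split rows or rows within 5% of a neighbour (0 of the 17 genes were among them), all 9 counts and medians were the same or within the margin set for a change. With total counts the medians were -0.516, 0.271 and -0.386 in the Mxr1-labelled, Gal83-deleted and Gcn5-deleted comparisons, and the genes called lower were 2 (gene3294 and gene3831), 0 and 1 (gene1971), where the shares of all rows called lower also grew, to 18.9% in the Mxr1-labelled and 10.8% in the Gcn5-deleted comparison. The cause is the scaling itself, which moved all rows alike. With DESeq2 1.42.0 size factors and with upper-quartile factors, 1 gene was called higher in the Gal83-deleted library in place of 2, as gene521 was no longer past 2-fold. At 1.5-fold the counts higher and lower were 2 and 3, 4 and 2, and 0 and 2. With the 11 genes whose description states the subunit, the Mxr1-labelled median was 0.20, so the sign of that median depends on which rows are counted. Adding the other rows named 37S, 54S or 39S was an alternative chosen after seeing the data. With them 2 rows were lower in the Mxr1-labelled library, beside 10.3% of all rows. In the Gal83-deleted library 4 were higher, beside 11.0%, and the Gcn5-deleted median was 0.0823. No gene called past 2-fold changed direction under these alternatives. The counting interval of gene521 in the Gal83-deleted library, 0.96 to 1.06, spanned the 2-fold limit. Whether depth limited the calls was not tested, and differences between cultures were not measured.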

Other observations

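A further 15 rows carry bacterial names, 30S or 50S, with no compartment given. Their median log2 ratios were 0.00, 0.15 and 0.26 in the Mxr1-labelled, Gal83-deleted and Gcn5-deleted libraries. In the Gal83-deleted library 30S protein S18 (gene631) was called higher at log2 1.45 and 50S protein L21 (gene4116) at 1.10, while 30S protein S10 (gene1952) was called lower at -1.85. Over all rows 11.0% and 10.7% were called higher and lower there. S10 had 11128, 5477 and 12772 counts in the Mxr1-labelled, Gal83-deleted and Gcn5-deleted libraries, against 28593 in the wild type.

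Of 5 rows named after bacterial-type initiation and release factors, also without a compartment, a row called translation initiation factor IF-2 (gene1743) had 669, 82.4 and 72.4 scaled CPM in the Mxr1-labelled, Gal83-deleted and Gcn5-deleted libraries, against 57.0 in the wild type. Its log2 ratio in the Mxr1-labelled library was 3.55 [3.50 to 3.61], where 7.97% of all rows were called higher. The other row of that name (gene1345) had 68.5, 80.9 and 21.0 CPM, against 43.1 in the wild type. It was called lower in the Gcn5-deleted library at log2 -1.04 [-1.17 to -0.91], beside 5.04% of all rows. The 3 rows described as peptide chain release factor 1 were between 0.37 and 0.59 in the Gal83-deleted library and between -0.93 and -0.12 in the Mxr1-labelled library.

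The 174 remaining rows described as mitochondrial, of any function, had median log2 ratios of -0.06, 0.07 and -0.04 in the Mxr1-labelled, Gal83-deleted and Gcn5-deleted libraries. Of these, 21 were called higher and 17 lower in the Mxr1-labelled library, beside 7.97% and 10.3% of all rows. In the Gal83-deleted library 27 were higher and 17 lower, beside 11.0% and 10.7%. In the Gcn5-deleted library 6 were higher and 8 lower, beside 4.06% and 5.04%.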
